A study of Mus musculus with 12 samples.

Results

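The comparison described here sets MC38 cells that express CEACAM1-L against control MC38 cells, 4 arrays of each. MC38 is a mouse colon carcinoma line that grows in C57BL/6 mice. Its members are all probes of a mouse bead array whose detection p-value was under 0.05 on at least 4 of these 8 arrays, and 15252 of 45281 probes met this rule. Of the probes kept, 13193 carried 1 gene symbol, 7 carried several and 2052 had none in the annotation used here. With each gene represented by its brightest kept probe, 8621 of 19057 named genes were tested. The 808 probes detected on exactly 4 arrays, just inside the rule, had a median level (normalized intensity, log2) of 4.82 and a median difference between CEACAM1-L and control of -0.01 on the same scale. The 872 probes detected on exactly 3 arrays, just outside it, had a median level of 4.73 and a median difference of -0.01. Of the 808, 94 were detected on every CEACAM1-L array and no control array, and 60 on every control array and no CEACAM1-L array, so these passed through 1 group alone.

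CEACAM1 is a cell adhesion receptor of the immunoglobulin superfamily that binds itself on neighbouring cells. Alternative splicing gives it a long or a short cytoplasmic tail. The long tail carries immunoreceptor tyrosine-based inhibitory motifs, which recruit the phosphatases SHP-1 and SHP-2 when phosphorylated, whereas the short tail lacks them. In intestinal epithelium CEACAM1 is known as a regulator of growth, insulin signalling and immune cell contacts.

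The control group consisted of metastatic MC38 cells that lack CEACAM1, and the CEACAM1-L group of MC38 cells expressing the long isoform. A further 4 arrays of MC38 cells expressing the short isoform, CEACAM1-S, entered the same normalization and model, and so its shared estimate of spread. They are used below for the difference between the isoform lines, gene by gene, and for CEACAM1-S values set beside those of CEACAM1-L. All groups were grown for 72 h in medium with 10% serum and selection antibiotics. The labels name neither the vector and promoter nor whether a line is 1 clone or a pool, so a property of the line and an effect of the isoform cannot be told apart. Nothing in the labels says that the 4 arrays of a group came from separate cultures, and the p-values therefore reflect spread among arrays only, possibly of technical origin.

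The 8 arrays had raw median intensities of 86.6 to 103 and detected 14717 to 15929 probes, or 32.5% to 35.2%. Correlations of log2 levels over the kept probes were 0.985 to 0.993 within the control group, 0.987 to 0.992 within the CEACAM1-L group and 0.955 to 0.968 between them. CEACAM1-L array 4 stood apart from its group. Over the 57 genes at least 4-fold different between the other CEACAM1-L arrays and control, it lay a median 18.2% of the way to control on the linear scale, and over 24 genes that set the isoforms apart it lay 28.4% of the way to CEACAM1-S. CEACAM1-S array 2 lay 27.2% of the way to CEACAM1-L over 29 such genes and 14.8% of the way to control over 26, while the other 10 arrays lay between -10.1% and 1.30%. What set these 2 arrays apart was not tested. The arrays were also split into sets, the 2 of each group with the highest raw maximum against the other 2. The maxima were 30290 to 38982 on control and CEACAM1-L arrays 2 and 3 and 17443 to 27138 on the others. Both groups lie in each set by construction. Within the brighter set alone 1565 genes were higher and 1654 lower, and within the dimmer set 920 and 789.

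The labelled tissue was checked against marker genes. Of 13 epithelial markers 7 were detected on none of the 8 arrays, among them Epcam, Krt18, Krt19 and Krt20, and of 10 intestinal markers 6 were detected on none, among them Vil1, Cdh17 and Lgr5, whereas Hnf4a was detected on all. Of 12 mesenchymal markers 10 were detected on all 8 arrays, with the intermediate filament gene Vim at a mean log2 level of 12.6. Of 15 immune markers with a probe 12, Ptprc included, were detected on none, and the summed linear level of the list was 326 to 336 in control and 326 to 339 in CEACAM1-L. The summed level of the epithelial list was 346 to 440 in control and 499 to 544 in CEACAM1-L, and of its 6 tested genes 1 rose, Cldn4, at a mean log2 level of 4.52 in control, where it was not detected, and 7.57 in CEACAM1-L. Krt8 lay at -0.43 (adjusted p = 0.0629), Krt7 at -0.45 (adjusted p = 0.0706) and Cdh1, the gene of E-cadherin, at 0.15 (adjusted p = 0.638). Of the 11 tested mesenchymal markers 2 rose and 4 fell. Zeb1 and Twist1, repressors of E-cadherin, rose by 0.43 ± 0.10 and 0.52 ± 0.15 (difference ± SE, log2, adjusted p = 0.00151 and 0.00754), and Snai2, another such repressor, fell, with a difference of -1.74 ± 0.14 (adjusted p = 9.84e-10). Twist2, Prrx1 and Fn1 fell by 0.51, 0.56 and 0.41.

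Of the 8621 genes, 3305 (38.3%) differed at an adjusted p under 0.05 in limma's moderated test with Benjamini-Hochberg adjustment, 1659 (19.2%) higher and 1646 (19.1%) lower in CEACAM1-L. All p-values for single genes below come from this test over all 8621 genes. The median difference over all tested genes was -0.01. Fewer cells of a kind and less RNA per cell cannot be told apart in such bulk samples. Most of these differences were small. The median absolute difference of the 3305 was 0.58 on the log2 scale, 50.3% of them lay under 1.5-fold, and 452 (5.24%) reached 2-fold, 256 (2.97%) higher and 196 (2.27%) lower. At 4-fold or more 29 were higher and 17 lower. Levels of all 4 CEACAM1-L arrays lay above those of all 4 control arrays for 1511 genes (17.5%) and below them for 1432 (16.6%). The split depended on scaling. With each array set to its median in place of quantile normalization, the median difference over all genes moved from -0.01 to -0.12. There 250 genes were higher and 390 lower, so 39.1% of the called genes were higher, against 50.2%. Without CEACAM1-L array 4, 1589 genes were higher and 1584 lower.

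On its brightest probe, Ceacam1 itself had levels of 4.87, 4.99, 4.88 and 4.96 in control arrays 1 to 4, which the labels call devoid of CEACAM1 but where this probe passed detection on all 4, and 6.70, 6.41, 6.50 and 6.58 in CEACAM1-L arrays 1 to 4. The difference was 1.63 ± 0.17 (3.09-fold, adjusted p = 7.62e-08). The 2 other kept probes were detected on no control array and every CEACAM1-L array, with smaller differences of 1.05 and 0.71, and 1 further probe was detected on none. On the brightest probe the short-isoform line was brighter (CEACAM1-L minus CEACAM1-S -1.78 ± 0.17, adjusted p = 5.56e-08). How much of each isoform's transcript the probes bind was not tested. The series title names decorin and EphA2, so both genes may have been chosen on these samples. Dcn rose from 6.75 to 7.42 in control to 9.70 to 9.90 in CEACAM1-L and stayed below CEACAM1-S (isoform difference -0.48 ± 0.13, adjusted p = 0.0062), and Epha2 fell by 0.60 on the log2 scale (adjusted p = 0.000537), a call lost with median scaling.

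Among the largest rises, Fcgrt encodes the heavy chain of the neonatal Fc receptor, which recycles IgG and albumin. Its control levels were 5.53, 5.62, 5.67 and 5.45 and its CEACAM1-L levels 8.55, 8.67, 8.68 and 8.44, so the groups stood far apart. The rise was 3.02 ± 0.13 (8.10-fold, adjusted p = 4.07e-14). In CEACAM1-S the gene was 2.47 above control, and CEACAM1-L exceeded CEACAM1-S by 0.55 ± 0.13 (adjusted p = 0.00244).

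Crabp2, a carrier of retinoic acid to its nuclear receptors, had control levels of 5.01, 5.12, 5.41 and 4.88 and CEACAM1-L levels of 8.14, 8.13, 8.45 and 7.71. The rise of 3.0 ± 0.17 (8.01-fold, adjusted p = 1.92e-12) was larger than in CEACAM1-S by 1.53 ± 0.17 (adjusted p = 3.05e-07). Olfm1, a secreted olfactomedin-domain protein, was at 5.10, 5.21, 5.43 and 4.52 in control and at 8.22, 8.08, 7.95 and 7.55 in CEACAM1-L. Its rise was 2.88 ± 0.23 (7.38-fold, adjusted p = 5.91e-10), and CEACAM1-L exceeded CEACAM1-S by 2.41 ± 0.23 (adjusted p = 3.85e-08). For both genes the CEACAM1-L arrays lay above every CEACAM1-S array as well as every control array.

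C2, a complement component of the classical pathway, changed in opposite directions in the isoform lines. It rose by 2.66 ± 0.31 in CEACAM1-L (6.32-fold, adjusted p = 2.83e-07), from 6.79, 6.77, 7.0 and 6.69 to 9.57, 9.65, 9.43 and 9.25. In CEACAM1-S it fell by 1.31 on the log2 scale (adjusted p = 0.00254), with levels of 4.93, 7.14, 4.76 and 5.17 of which array 2, the one that stands apart, is the highest. The isoform lines differed by 3.97 ± 0.31 (adjusted p = 2.73e-09).

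Ep300, a histone acetyltransferase and coactivator, had control levels of 7.93, 7.98, 8.27 and 7.96 and CEACAM1-L levels of 10.68, 10.44, 10.41 and 10.16. It rose by 2.39 ± 0.19 (5.23-fold, adjusted p = 8.58e-10), while the CEACAM1-S difference of 0.14 did not pass the test (adjusted p = 0.661) and its array 2, at 9.08, stood above its 3 other arrays at 7.71 to 7.98. The CEACAM1-L line exceeded the CEACAM1-S line by 2.25 ± 0.19 (adjusted p = 9.94e-09).

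Acot1 encodes a cytosolic acyl-CoA thioesterase with close paralogues, so its probe may not be specific. Its brightest probe was detected on no control array, where it lay at 4.22 to 4.61, and on every CEACAM1-L array, at 6.99 to 7.56. A second kept probe, detected on 2 control arrays and every CEACAM1-L array, rose by 0.90 on the log2 scale (adjusted p = 0.00105, the same test over all kept probes). A probe not detected in 1 group has only a bound there, so the rise of the brightest probe is given as at least 5.81-fold (adjusted p = 1.99e-12). The bound sets the brighter group's mean against the dimmest level at which probes of those arrays were detected or the gene's own level, whichever is higher.

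Further large rises were those of Tmem119, a membrane protein known from bone formation and as a microglial marker (2.77 ± 0.13), Dennd2a, a guanine nucleotide exchange factor for Rab9 (2.69 ± 0.16), the orphan receptor Gpr146 (2.63 ± 0.19) and Lrrn4cl (2.40 ± 0.13). All 4 had CEACAM1-L arrays above every control array, with adjusted p-values of 9.50e-11 or lower. Dennd2a and Gpr146 were each detected on 1 control array, so their differences rest on control levels mostly not above background. CEACAM1-L exceeded CEACAM1-S by 1.96 ± 0.19 for Gpr146 (adjusted p = 4.01e-08) and by 0.20 ± 0.16 for Dennd2a (adjusted p = 0.378).

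Among the largest falls, Klf2, a zinc-finger transcription factor induced through the MEK5-ERK5 cascade, had control levels of 9.15, 9.22, 9.25 and 9.19 and CEACAM1-L levels of 7.18, 6.69, 7.32 and 6.72. The fall was -2.22 ± 0.15 (4.66-fold lower, adjusted p = 5.68e-11). CEACAM1-S was also below control, by a difference of -1.92, and the isoform lines differed by -0.30 ± 0.15 (adjusted p = 0.15).

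Dkk3, a secreted glycoprotein of the Dickkopf family of Wnt modulators, was at 9.22, 9.52, 9.62 and 9.68 in control and at 7.46, 7.31, 7.57 and 7.74 in CEACAM1-L. It fell in CEACAM1-L, with a difference of -1.98 ± 0.12 (3.96-fold lower, adjusted p = 6.36e-12), while CEACAM1-S lay at -0.18 (adjusted p = 0.299). The difference between the lines was -1.80 ± 0.12 (adjusted p = 3.94e-10). Kctd15, a BTB-domain protein known to restrict neural crest formation in zebrafish and frog, showed -2.04 ± 0.16 in CEACAM1-L (4.10-fold lower, adjusted p = 4.29e-10) and -0.23 in CEACAM1-S, a difference between the lines of -1.81 ± 0.16 (adjusted p = 1.30e-08).

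Slco2a1, a transporter that takes up prostaglandins, had control levels of 8.09, 8.10, 8.05 and 7.68 and CEACAM1-L levels of 5.58, 5.13, 5.63 and 5.93. Its difference was -2.42 ± 0.17 (5.34-fold lower, adjusted p = 8.68e-11), and CEACAM1-S at -0.81 lay between (isoform difference -1.61 ± 0.17, adjusted p = 1.75e-07). Prodh, which starts proline breakdown in mitochondria, fell from 6.95, 7.04, 7.16 and 7.22 to 4.64, 4.79, 4.55 and 5.67. The difference was -2.18 ± 0.21 (adjusted p = 1.64e-08). It passed detection on 1 CEACAM1-L array, so the measured fall rests on levels mostly not above background there. Btbd19 fell from 10.07, 10.51, 10.40 and 10.19 to 7.60, 7.55, 7.38 and 8.88, a difference of -2.44 ± 0.22 (adjusted p = 4.36e-09) that became -2.78 without array 4. In these last genes array 4 is the CEACAM1-L array nearest to control.

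Other large falls were those of the linker histone gene H1f2 (-2.01 ± 0.15), the magnesium transporter Nipal1 (-1.98 ± 0.16), the butyrophilin Btn1a1 and Mfsd2a, a carrier of lysophosphatidylcholine with omega-3 fatty acids. The last pair was detected on every control array and no CEACAM1-L array, and was at least 4.52-fold (adjusted p = 4.93e-11) and at least 2.72-fold lower (adjusted p = 1.64e-08). For these 4 genes the isoform lines differed by -0.06 to -0.38, with adjusted p-values of 0.144 to 0.822. Btn1a1 and Mfsd2a were each detected on 1 CEACAM1-S array, so their isoform differences compare levels mostly not above background.

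Genes of the circadian clock were set against the background. In this feedback loop CLOCK and ARNTL (BMAL1) bind E-box sequences and drive the Per and Cry repressors, the nuclear receptor gene Nr1d1 and the output factors Dbp, Tef and Hlf, which bind D-box sequences. Of 16 tested genes 7 rose and 1 fell, against 19.2% and 19.1% of all genes, with a median of 0.13. The highest member was Dbp, at 3.70 above control, followed by Nr1d1, whose levels of 5.38, 5.03, 5.14 and 5.23 in control became 7.78, 6.99, 7.43 and 7.08. Nr1d1 encodes the repressor REV-ERB alpha, and it rose by 2.13 ± 0.20 (4.36-fold, adjusted p = 9.51e-09). CEACAM1-S lay 0.40 above control (adjusted p = 0.157), and the isoform lines differed by 1.73 ± 0.20 (adjusted p = 6.13e-07).

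Tef rose by 1.20 ± 0.21 (adjusted p = 6.85e-05), from 6.77, 6.50, 6.41 and 7.16 to 8.12, 7.68, 7.40 and 8.42. Per1, Per2 and Per3 encode the period repressors. Per1 rose by 0.79 ± 0.14 (adjusted p = 0.000106) and Per2 by 0.95 ± 0.18 (adjusted p = 0.000232), with no overlap between the groups. Per3, seen on all CEACAM1-L arrays and in control on none, was higher by at least 1.65-fold (adjusted p = 6.85e-05). The isoform lines differed for all 3 Per genes, by 1.07 ± 0.14 for Per1 (adjusted p = 4.85e-06), 0.75 ± 0.18 for Per2 (adjusted p = 0.00342) and 0.56 ± 0.18 for Per3 (adjusted p = 0.0233). The Per3 call was lost without CEACAM1-S array 2 (adjusted p = 0.059) and kept without both arrays that stand apart (adjusted p = 0.0205). Bhlhe40, a repressor of the same loop, rose by 0.58 ± 0.14 (adjusted p = 0.00165). Of the positive arm, Clock fell by 0.41 on the log2 scale (adjusted p = 0.0128) with overlapping arrays, and Arntl lay at -0.35 ± 0.18 (adjusted p = 0.144). With the arrays scaled to the median 4 members were higher and none lower.

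Promoters were searched on either strand over the 250 bases before the start and the 50 after it. The E-box letters CACGTG occur in 2 of the 5 risen clock genes that have a promoter in the RefSeq table of GRCm38.p6, Per1 and Tef. They occur in 8.09% of all genes in the table and 12.1% of the tested genes. The D-box letters TTANGTAA occur in 1 of 5, Per3, against 2.72%. Windows before the start are shown because the clock genes are defined by such elements. The match, in capitals, is a description of the letters and not of binding. The windows lie at chr11:69098753-69098818 (plus strand) for Per1, chr15:81802516-81802581 (plus strand) for the upstream start of Tef, and chr4:151044786-151044900 (minus strand) for Per3.
Per1: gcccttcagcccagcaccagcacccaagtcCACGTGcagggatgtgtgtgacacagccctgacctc
Tef: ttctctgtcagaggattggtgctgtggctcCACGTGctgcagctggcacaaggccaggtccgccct
Per3: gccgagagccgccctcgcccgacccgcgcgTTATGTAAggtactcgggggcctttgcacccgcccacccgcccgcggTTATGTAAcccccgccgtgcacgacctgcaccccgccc

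Genes of glutathione and thioredoxin metabolism include many targets of the transcription factor NRF2. NRF2 is held down by KEAP1 and induces detoxifying enzymes when electrophiles or oxidants disable that hold. Of 36 tested members 18 rose and 1 fell, against 19.2% and 19.1% of all genes, with a median of 0.30. With median scaling 7 were higher and none lower. Nqo1, a quinone reductase that is a standard NRF2 target, had control levels of 7.13, 6.99, 7.18 and 7.06 and CEACAM1-L levels of 9.68, 9.52, 9.55 and 9.07. It rose by 2.37 ± 0.15 (5.16-fold, adjusted p = 7.15e-12), against 0.76 in CEACAM1-S, an isoform difference of 1.61 ± 0.15 (adjusted p = 2.16e-08). Srxn1, which restores overoxidized peroxiredoxins, was at 9.31, 9.46, 9.47 and 9.49 in control and 10.93, 10.74, 10.68 and 10.58 in CEACAM1-L. Its rise was 1.30 ± 0.10 (2.46-fold, adjusted p = 1.99e-10), and CEACAM1-S lay at -0.09, a difference between the lines of 1.39 ± 0.10 (adjusted p = 5.21e-10).

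Gclm, a subunit of the enzyme that starts glutathione synthesis, rose by 1.06 ± 0.11 (adjusted p = 9.52e-08). The glutathione transferases Gstm1 and Gstm2 rose by 1.58 ± 0.12 and 1.54 ± 0.13 (adjusted p = 1.99e-10 and 1.71e-09). They are near-identical copies whose probes may share transcripts, yet the isoform lines differed in opposite directions, by 0.62 for Gstm1 (adjusted p = 0.000325) and -0.39 for Gstm2 (adjusted p = 0.025). The microsomal transferase Mgst1 passed detection on no array of the control but all of CEACAM1-L, a rise of at least 2.98-fold (adjusted p = 1.87e-07). Keap1 itself was 0.60 ± 0.13 above control (adjusted p = 0.000693), and the member that fell was Txnip, an inhibitor of thioredoxin (-0.49 ± 0.10, adjusted p = 0.000609). Slc48a1, which carries haem out of lysosomes and is no member of this list, rose by 1.43 ± 0.10 (2.69-fold, adjusted p = 5.68e-11).

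Lysosomal and autophagy genes encode the hydrolases, membrane proteins and proton pump of the lysosome and the proteins that deliver cargo to it. Of 41 tested members 22 rose and 1 fell, against 19.2% and 19.1% of all genes, with a median of 0.34, and 5 of those rises reached 2-fold. With median scaling 5 were higher and none lower. Gabarapl1, an ATG8 protein of the autophagosome membrane, was at 8.87, 9.40, 9.42 and 9.35 in control and 10.70, 10.74, 10.84 and 10.45 in CEACAM1-L. The rise was 1.42 ± 0.11 (2.68-fold, adjusted p = 8.58e-10), and CEACAM1-L exceeded CEACAM1-S by 1.14 ± 0.11 (adjusted p = 9.51e-08). Among the hydrolases, Idua, which degrades glycosaminoglycans, rose by 1.23 ± 0.18 (adjusted p = 6.46e-06), Hexa, which degrades gangliosides, by 1.18 ± 0.11 (adjusted p = 5.96e-09), and the acid lipase Lipa by 1.06 ± 0.20 (adjusted p = 0.000143). The sialidase Neu1 rose by 1.10 ± 0.12 (adjusted p = 1.72e-07), a call lost with median scaling. Ids, another enzyme of glycosaminoglycan breakdown, was the member that fell (-0.69 ± 0.13, adjusted p = 0.000242).

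Ribosome biogenesis genes stood on the other side. Ribosomes are assembled in the nucleolus, where RNA polymerase I makes the ribosomal RNA precursor and many factors cut, modify and fold it. Of 48 tested members 30 fell and 1, Imp3, rose, against 19.1% and 19.2% of all genes, and the median was -0.50. Of these falls 10 reached 2-fold. Without CEACAM1-L array 4 the counts were 30 and 0, and with median scaling 13 and 0. Pes1 and Bop1 encode partners in the complex that matures the large subunit. Pes1 was at 8.18, 7.73, 7.79 and 7.10 in control and at 4.89, 4.95, 5.28 and 6.39 in CEACAM1-L, a difference of -2.32 ± 0.25 (4.99-fold lower, adjusted p = 8.02e-08). Array 4 was again the nearest to control, and without it the difference was -2.66. Bop1 fell from 8.20, 8.12, 7.60 and 8.19 to 6.98, 6.58, 5.99 and 6.71 (-1.46 ± 0.19, adjusted p = 1.68e-06).

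Nop56 and Nop58, the core proteins of box C/D small nucleolar ribonucleoproteins that guide methylation of ribosomal RNA, are bright genes with tight replicates. Nop56 was at 12.17, 12.21, 12.26 and 12.07 in control and from 10.84 to 11.07 in CEACAM1-L, a difference of -1.23 ± 0.08 (2.34-fold lower, adjusted p = 5.68e-11). Nop58 fell by 1.28 on the log2 scale (adjusted p = 3.30e-09). Snhg12, a non-coding host transcript of small nucleolar RNAs and no member of the list, fell from 11.88, 11.89, 11.62 and 11.97 to 10.27, 10.22, 10.32 and 10.20 (-1.59 ± 0.09, adjusted p = 4.02e-12).

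The nucleolin gene Ncl (-1.23 ± 0.16), the polymerase I subunit gene Polr1e (-1.25 ± 0.12), Noc3l (-1.34 ± 0.16), Rrp12 (-1.37 ± 0.12) and the helicase gene Ddx21 (-1.13 ± 0.14) also fell, with adjusted p-values of 1.44e-06 or lower. For Pes1, Bop1, Nop56, Nop58, Ncl, Polr1e, Noc3l, Rrp12 and Ddx21 CEACAM1-L lay below CEACAM1-S, by differences of -0.43 to -1.81, with adjusted p-values of 3.93e-06 to 0.0281. Structural proteins of the ribosome were a different case, since of 51 tested genes 3 rose and 8 fell, with a median of -0.03. The letters CACGTG, the site also bound by MYC, occur in 7 of 26 fallen ribosome biogenesis genes with a promoter in the table (26.9%), against 12.1% of the tested genes. No match was found over the same promoter bases for the sterol element TCACNCCAC in 7 risen sterol genes (1.44% of all genes hold it). The AP-1 site TGANTCA had none in 9 fallen immediate-early genes (8.97%), nor had the cyclic AMP element TGACGTCA in the same 9 and in 12 fallen ATF4 genes (2.03%).

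Immediate-early genes, which growth factors switch on within minutes through ERK and SRF, were mostly lower. Of 23 tested members 14 fell and 2, Fosl2 and Srf, rose, against 19.1% and 19.2% of all genes, with a median of -0.69, and 8 falls reached 2-fold. With median scaling 11 were lower and none higher. Jun, a subunit of the AP-1 transcription factor, was at 9.72, 9.68, 9.99 and 10.13 in control and 8.52, 8.55, 8.79 and 8.42 in CEACAM1-L. The difference was -1.31 ± 0.12 (2.48-fold lower, adjusted p = 4.11e-09), and the isoform lines differed by -0.11 ± 0.12 (adjusted p = 0.549). Its partner Fos, had control levels of 7.05, 5.70, 6.40 and 5.99, passed detection on 2 of 4 CEACAM1-L arrays and fell by 1.46 on the log2 scale (adjusted p = 0.000128).

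Egr1 fell by 1.06 (2.08-fold, adjusted p = 1.68e-06), Myc by 1.08 (adjusted p = 2.87e-06) and Klf4 by 1.08 on the log2 scale (adjusted p = 1.47e-07). Klf6 fell from 11.71, 11.32, 11.31 and 11.27 to 10.31, 10.35, 9.93 and 10.15 (-1.22 ± 0.11, adjusted p = 7.69e-09). The lines differed by -0.59 for Klf4 (adjusted p = 0.000568) and -0.52 for Klf6 (adjusted p = 0.00113), and by -0.01 for Myc (adjusted p = 0.969).

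Feedback inhibitors of the same cascade were examined next. Of 14 tested ERK phosphatases and Sprouty proteins 8 fell and 1 rose, against 19.1% and 19.2% of all genes (5 and 1 with median scaling). Dusp5, a nuclear phosphatase of ERK, was at 9.79, 9.30, 9.39 and 9.50 in control and 7.34, 7.29, 7.53 and 7.40 in CEACAM1-L. It fell by 2.10 on the log2 scale (4.29-fold, adjusted p = 6.36e-12), and in CEACAM1-S it lay lower still, the lines differing by 0.35 ± 0.13 (adjusted p = 0.0455), a call lost without both arrays that stand apart. Errfi1, an inhibitor of the EGF receptor, fell from 12.69, 12.78, 12.94 and 12.95 to 11.48, 11.79, 11.75 and 11.65 (-1.17 ± 0.09, adjusted p = 8.49e-10). The member that rose was Dusp4, at 9.13, 9.48, 9.28 and 9.01 in control and 10.81, 10.73, 10.72 and 10.39 in CEACAM1-L, a rise of 1.44 ± 0.16 (2.71-fold, adjusted p = 1.18e-07). CEACAM1-S lay at -0.36 from control for Dusp4, and CEACAM1-L exceeded it by 1.80 ± 0.16 (adjusted p = 1.30e-08). Of 4 tested EGF-family ligands 2 fell, with Hbegf at -1.64 ± 0.13 (3.12-fold lower, adjusted p = 3.84e-10) and -1.74 in CEACAM1-S.

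Branches of the stress response gave different counts. ATF4 induces amino acid transporters and synthetic enzymes when amino acids or folding capacity run short. Of 30 tested genes of this programme and of serine synthesis 16 fell and 2 rose, against 19.1% and 19.2% of all genes, with a median of -0.31, and with median scaling 2 were lower and none higher. Sesn2, an inhibitor of mTORC1 that senses leucine, had the largest fall, from 8.13, 8.53, 8.71 and 8.57 to 7.23, 7.42, 7.26 and 6.53 (-1.37 ± 0.18, adjusted p = 1.61e-06). The neutral amino acid carrier Slc1a4 fell by 0.93 on the log2 scale (adjusted p = 2.28e-06), and asparagine synthetase, Asns, by 0.43 (adjusted p = 0.00355) with overlapping groups.

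Of 27 tested endoplasmic reticulum chaperones and unfolded protein response genes 12 rose and 3 fell, against 19.2% and 19.1% of all genes. Their median was 0.39. With median scaling 2 were higher and 1 lower. Ddit3 encodes CHOP, a transcription factor induced by endoplasmic reticulum stress, and was counted in this list but not among the ATF4 genes above. It rose by 1.45 ± 0.13 (2.73-fold, adjusted p = 3.08e-09), from 9.62, 10.11, 10.06 and 10.00 to 11.18, 11.66, 11.45 and 11.28, and exceeded CEACAM1-S by 0.93 ± 0.13 (adjusted p = 5.49e-06). The oxidase gene Ero1b rose by 1.03 ± 0.18 (adjusted p = 5.43e-05) and Sdf2l1 by 1.09 ± 0.14 (adjusted p = 1.72e-06), the latter lost with median scaling. Ppp1r15a, the GADD34 subunit that reverses eIF2 alpha phosphorylation, fell from 11.25, 11.28, 11.43 and 11.29 to 10.28, 10.16, 10.16 and 10.00 (-1.16 ± 0.10, adjusted p = 3.89e-09). It was not counted among the ATF4 genes either.

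Interferon-stimulated genes encode the antiviral state that interferons set up, many of them through interferon-stimulated response elements. Of 29 tested members 16 rose and 3 fell, against 19.2% and 19.1% of all genes, with a median of 0.46, and with median scaling 7 were higher and 1 lower. Ifit3, which binds viral RNA with its sister proteins and has a near-identical copy, rose by 1.86 ± 0.15 (3.62-fold, adjusted p = 1.32e-09), from 6.27, 6.78, 6.49 and 6.70 to 8.40, 8.42, 8.54 and 8.30. Rsad2, the antiviral enzyme viperin, rose by 1.51 ± 0.15 (2.84-fold, adjusted p = 1.98e-08). Bst2, which tethers budding virions, rose by 1.29 ± 0.17 (adjusted p = 2.62e-06), and the ubiquitin-like modifier Isg15 by 0.55 ± 0.14 (adjusted p = 0.00252) with overlapping arrays. CEACAM1-L exceeded CEACAM1-S by 1.19 for Ifit3 (adjusted p = 2.99e-06) and 0.86 for Rsad2 (adjusted p = 0.000102), and the difference of 0.43 for Bst2 did not pass (adjusted p = 0.0661).

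The response element was searched as GAAA, any 2 bases and GAAA again, on either strand. Over the 250 bases before the start and the 50 after it, these letters occur in 4 of 11 risen members with a promoter in the table (36.4%). They occur in 3 of 12 other members, against 3.99% of all genes and 3.69% of the tested genes. The 4 risen genes are those just described, and only matches before the start are shown. Their windows on GRCm38.p6 lie at chr19:34583343-34583446 (plus strand, Ifit3), chr12:26456533-26456602 (minus strand, Rsad2), chr8:71537557-71537632 (minus strand, Bst2) and chr4:156200845-156200926 (minus strand, Isg15), each 5′ to 3′ with the matches, overlapping ones joined, in capitals.
Ifit3: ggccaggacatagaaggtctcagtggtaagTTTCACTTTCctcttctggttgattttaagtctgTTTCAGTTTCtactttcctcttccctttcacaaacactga
Rsad2: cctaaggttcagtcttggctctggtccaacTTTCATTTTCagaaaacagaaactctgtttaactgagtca
Bst2: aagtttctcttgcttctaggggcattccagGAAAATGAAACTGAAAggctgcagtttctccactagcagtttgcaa
Isg15: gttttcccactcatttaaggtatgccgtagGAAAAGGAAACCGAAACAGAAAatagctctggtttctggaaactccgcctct

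Related immune genes were mixed. Of 22 tested genes of class I presentation 9 rose and 1 fell, against 19.2% and 19.1% of all genes, and with median scaling 1 was higher. The member that fell was the transactivator gene Nlrc5 (-0.66 ± 0.18, adjusted p = 0.00451). The chemokine gene Cxcl10 rose by 0.58 ± 0.14 (adjusted p = 0.00179) while in CEACAM1-S it fell by 0.67 on the log2 scale, an isoform difference of 1.25 ± 0.14 (adjusted p = 3.29e-07).

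Growth factors and chemokines moved both ways. Of 21 tested cytokines and colony-stimulating factors 8 rose and 10 fell, and of 11 chemokines 3 rose and 4 fell. The shares over all genes were 19.2% and 19.1%. Pdgfb, a mitogen of mesenchymal cells, was at 5.46, 5.76, 5.50 and 4.72 in control and 7.79, 7.37, 7.63 and 7.16 in CEACAM1-L, a rise of 2.13 ± 0.20 (4.37-fold, adjusted p = 1.36e-08) and 1.04 ± 0.20 above CEACAM1-S (adjusted p = 0.00044). Il15, which sustains natural killer cells and memory T cells, rose by 1.68 ± 0.17 (3.21-fold, adjusted p = 3.13e-08).

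Cxcl1, which attracts neutrophils, fell from 9.32, 9.36, 9.38 and 9.66 to 7.72, 7.58, 7.85 and 7.91 (-1.66 ± 0.14, adjusted p = 1.62e-09), further than in CEACAM1-S (isoform difference -1.15 ± 0.14, adjusted p = 1.18e-06). Csf2, the gene of GM-CSF, was detected on every control and 1 CEACAM1-L array and fell by a measured 1.54 on the log2 scale (adjusted p = 1.58e-06), against levels mostly not above background. Il11, detected on 2 CEACAM1-L arrays, fell by 1.11 (adjusted p = 4.64e-05). Csf1, the macrophage growth factor, showed a difference of -0.85 ± 0.19 (adjusted p = 0.00113), with array 1 of CEACAM1-L at 7.82 and control from 7.89 to 8.73.

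Sterol genes, which SREBP2 induces when cholesterol is low, included 9 that rose and none that fell among 20 tested, against 19.2% and 19.1% of all genes. Their median was 0.33. With median scaling 3 were higher. The mevalonate pathway enzymes Mvk and Mvd rose by 1.38 ± 0.21 and 1.16 ± 0.14 (adjusted p = 1.27e-05 and 3.54e-07), and Insig1, which retains the SREBP complex in the endoplasmic reticulum, by 1.16 ± 0.16 (adjusted p = 2.82e-06). Without both arrays that stand apart, the isoform difference of Mvk and Insig1 no longer passed the test. Of 26 genes of fatty acid synthesis and oxidation 10 rose and 1 fell, and of 67 respiratory chain genes 19 rose and 2 fell. Neither list had any call with median scaling, and there the median of the respiratory chain turned from 0.12 to -0.04. Khk, which phosphorylates fructose and belongs to none of these lists, rose by 2.23 ± 0.17 (4.70-fold, adjusted p = 2.70e-10).

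Of 9 tested retinoid genes, Crabp2 among them, 5 rose and 1 fell, against 19.2% and 19.1% of all genes (2 and 1 with median scaling). The member that fell was Stra6, a receptor for vitamin A uptake, at -2.89 ± 0.19 (7.43-fold lower, adjusted p = 2.99e-11). Rxra, the shared partner of nuclear receptors, was at 6.46, 6.60, 6.65 and 6.60 in control and 8.43, 8.46, 8.39 and 7.94 in CEACAM1-L. It rose by 1.73 ± 0.17 (3.31-fold, adjusted p = 1.39e-08), and exceeded CEACAM1-S by 1.56 ± 0.17 (adjusted p = 1.73e-07). The retinoic acid receptor gene Rarg rose by 0.93 ± 0.15 (adjusted p = 4.11e-05), a call lost with median scaling. Of 11 xenobiotic enzymes 6 rose and 2 fell, with Cyp2d22 at 2.03 ± 0.14 (4.07-fold, adjusted p = 9.50e-11) and Cyp3a13, the largest change of the list, at -3.55 ± 0.18 (11.7-fold lower, adjusted p = 2.41e-13). Akr1c18, a steroid dehydrogenase, was detected on every CEACAM1-L array and on no other array of the 12, at least 1.95-fold above control (adjusted p = 6.80e-07).

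Matrix genes were considered with the fibroblast markers that move beside them. Of 13 tested collagen chains 8 rose and none fell, and of 22 matrix glycoproteins 10 rose and 5 fell, against 19.2% and 19.1% of all genes. With median scaling 2 and 0 collagens and 5 and 1 glycoproteins were called. In CEACAM1-S 9 collagens rose and none fell and 12 glycoproteins rose and 5 fell, against 12.4% and 12.2% of all genes. Their medians were 0.91 and 0.40 in CEACAM1-S and 0.34 and 0.20 in CEACAM1-L. Over the 10 fibroblast markers the summed linear level was 523 to 618 in control and 1536 to 1700 in CEACAM1-L, while Lum, Thy1, Fap and Postn were detected on no array. Of the 4 tested 3 rose, Dcn, Pdgfra and Col3a1. The part of other cells in these results was not tested. Thbs2, which restrains angiogenesis, was at 8.58, 8.67, 8.51 and 8.54 in control and 10.09, 10.04, 10.06 and 9.84 in CEACAM1-L, a rise of 1.43 ± 0.11 (2.70-fold, adjusted p = 2.88e-10) and 1.04 above CEACAM1-S (adjusted p = 1.57e-07). The proteoglycan gene Vcan rose by 1.24 ± 0.16 (adjusted p = 1.77e-06), while CEACAM1-S lay at 0.03, an isoform difference of 1.20 ± 0.16 (adjusted p = 5.13e-06). For Col6a2, a chain of beaded filaments, the order was the opposite, since it rose by 1.24 ± 0.14 in CEACAM1-L (adjusted p = 2.56e-07) and lay below CEACAM1-S (isoform difference -1.08 ± 0.14, adjusted p = 3.73e-06).

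Of 9 tested integrins 4 fell and 1 rose, against 19.1% and 19.2% of all genes (2 and 0 with median scaling). Itgb4 of the laminin receptor lay at -1.21 ± 0.17 (adjusted p = 4.08e-06) and Itgav of the vitronectin receptor at -1.01 ± 0.16 (adjusted p = 3.02e-05). Itgb4 passed detection on 2 of 4 CEACAM1-L arrays, and lay below CEACAM1-S by a difference of -0.83 (adjusted p = 0.000619). Of 35 actin and contractile genes 13 fell and 1, Mylk, rose, and no call remained with median scaling. Synpo, which organizes actin in podocytes and neurons, showed a difference of -0.68 ± 0.13 (adjusted p = 0.000186). Plau, the urokinase that activates plasminogen, fell by 1.22 on the log2 scale (2.33-fold, adjusted p = 3.99e-07), and the collagenase gene Mmp13 rose by 1.23 ± 0.24 (adjusted p = 0.000242). Ephb4, a receptor for ephrin-B2, rose by 1.29 ± 0.11 (2.45-fold, adjusted p = 3.86e-09). Cavin2, a coat protein of caveolae, fell from 12.48, 12.20, 12.23 and 12.41 to 11.28, 11.27, 11.16 and 11.40 (-1.05 ± 0.10, adjusted p = 2.51e-08).

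Of 60 tested replication and mitosis genes 17 rose and 3 fell, and the median of 0.11 turned to -0.03 with median scaling, where no member was called. Among G1 regulators 3 of 17 rose and 5 fell. Cdkn2d, an inhibitor of CDK4 and CDK6, rose by 1.20 ± 0.17 (adjusted p = 4.72e-06), and Ccnd1, their cyclin, fell from 12.89, 13.13, 12.98 and 13.24 to 12.33, 12.33, 12.45 and 12.57 (-0.64 ± 0.09, adjusted p = 3.82e-06) while CEACAM1-S lay at 0.07 (isoform difference -0.70, adjusted p = 2.10e-06). Of 23 p53 targets 4 rose and 3 fell, of 23 Wnt genes 6 rose and 4 fell, and of 28 TGF-beta genes 7 rose and 6 fell, shares near the 19.2% and 19.1% of all genes. Among 24 genes of glycolysis and the hypoxia response 6 rose and 9 fell.

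The other lists are given by their counts. Shares over all genes were 19.2% higher and 19.1% lower. Among 20 heat shock proteins 9 rose and 1 fell (1 and 0 with median scaling), among 18 collagen processing enzymes 8 rose and 2 fell (0 and 1), and among 26 matrix proteases and their inhibitors 6 rose and 6 fell (1 and 1). Of 15 receptor tyrosine kinases 2 rose and 3 fell, with a median whose sign turned with median scaling, as did that of the p53 targets. Of 7 Eph receptors and ephrins 3 rose and 2 fell, and of 6 interferon-inducible GTPases 5 rose and 1 fell (0 and 1 with median scaling). Among 14 metallothioneins and zinc transporters 2 rose and 5 fell, and the zinc importer gene Slc39a4 rose by 1.46 ± 0.17 (adjusted p = 2.06e-07) while staying below CEACAM1-S (isoform difference -1.14, adjusted p = 1.46e-05). Of 14 tight junction and epithelial adhesion genes 2 rose and 1 fell, of 12 S100 genes 3 fell, of 13 Bcl2 family genes 2 fell and of 6 keratins 2 fell. Of 5 complement genes 3 rose and 1 fell, of 3 clade B serpins 2 rose and 1 fell, and of 8 imprinted genes 3 rose and 2 fell.

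Some transcripts passed detection in only 1 of the control and CEACAM1-L groups. Named probes detected on all 4 CEACAM1-L arrays and no control array numbered 82 in 78 genes, of which 73 in 69 genes passed the test over all kept probes. The opposite held for 47 probes in 47 genes, of which 42 passed. Detection on the same arrays that the test compares picked these probes. Neither these counts nor the p-values of such genes are therefore separate support. Ppargc1a, the coactivator that drives mitochondrial biogenesis, lay at 4.32, 4.46, 4.63 and 4.24 in control, not detected, and at 6.36, 6.40, 6.48 and 6.13 in CEACAM1-L. It was at least 2.91-fold higher (adjusted p = 3.31e-08), and CEACAM1-L exceeded CEACAM1-S by 1.54 ± 0.19 (adjusted p = 2.24e-06). Batf3, a transcription factor known from dendritic cell development, was at least 2.74-fold higher (adjusted p = 3.05e-08), and Cdyl, a reader of repressive histone marks, at least 3.23-fold (adjusted p = 3.89e-09). Sphk1, which makes sphingosine 1-phosphate, was at least 2.55-fold higher (adjusted p = 5.42e-08).

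Among transcripts detected in control alone, Fam71f1 lay at 6.44, 6.61, 6.61 and 6.38 in control and was at least 3.29-fold lower (adjusted p = 1.39e-08). Fgfbp1, a carrier that releases fibroblast growth factors from the matrix, was at least 2.41-fold lower (adjusted p = 2.20e-06). Flt1, a receptor for VEGF, was at least 2.25-fold lower (adjusted p = 1.02e-05). For Cdyl, Sphk1, Fgfbp1 and Flt1 the isoform lines differed by sizes whose adjusted p-values were 0.125 to 0.444. Fgfbp1 and Flt1 were detected on 3 and 2 CEACAM1-S arrays and no CEACAM1-L array, so background limits their isoform differences.

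Called genes were not spread evenly over the chromosomes. Of the 596 tested genes on chromosome 5, 265 (44.5%) rose and 51 (8.56%) fell, with a median of 0.28, where 12.5% to 26.3% of the genes on the other chromosomes rose. The next highest shares of rises were 26.3% on chromosome 9, whose median was 0.08 in CEACAM1-L and 0.39 in CEACAM1-S, and 24.4% on chromosome 2, and the highest share of falls was 29.7% on chromosome 4. The median of the 596 chromosome 5 genes in CEACAM1-S was 0.04, and 184 of them (30.9%) were higher in CEACAM1-L than in CEACAM1-S. Genes named above that lie on chromosome 5 include Tmem119, Gpr146, Khk, Ephb4, Mvk, Insig1, Idua, Cxcl10 and Ppargc1a among the rises. Cxcl1, Nipal1, Clock, Fgfbp1 and Flt1 are among its falls. Without CEACAM1-L array 4, 246 of its genes were higher and 46 lower, and with median scaling 39 and 19. With all genes of chromosome 5 left out of the fit, 1377 genes were higher and 1577 lower, a setting chosen after the data were seen. Whether the copy number of chromosome 5 differs between the lines was not tested.

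Genes with several kept probes allow a check of single probes. Of 3176 such genes 1378 were called, and in 1159 of these every further probe had the same direction, while in 18 a further probe passed the test in the opposite direction. Among those of at least 2-fold, 155 of 166 had all probes in 1 direction and none had an opposite call. Genes whose probes passed in both directions included Adar, an RNA editing enzyme (0.97 and -0.66), the mediator subunit gene Med1 (0.79 and -0.72) and Tgfbr2, a receptor of TGF-beta (1.19 and -0.32), so no direction is given for these genes. Which transcript each probe binds was not examined. Of the 2052 probes without a gene name, 279 were higher and 311 lower in CEACAM1-L in the test over all kept probes. Of the tested genes 19.2% were higher and 19.1% lower.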

How the data were processed

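RNA was extracted with Trizol and columns, treated with DNase and labelled as biotinylated cRNA, per the labels' protocols. The authors deposited, per the file headers, non-normalized average signal intensities of 45281 probes and a detection p-value of each probe on each of 12 arrays. The authors also deposited log2 values, of which the sources used here give no normalization method; every column correlated best with its own array, at 0.996 or more, with medians of 7.06 to 7.08, and lumi 2.6.0 is named, without its role, in the submitters' processing notes. The number of arrays limits the precision.

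The intensities of all 12 arrays were corrected and quantile normalized with neqc (normexp on the detection p-values, offset 16, log2) in limma 3.58.1 under R 4.3.3. A linear model with 3 groups was fitted with lmFit and eBayes (trend along the mean level, degrees of freedom 9 residual and 15.0 prior), adjusted by Benjamini-Hochberg over 8621 genes, threshold 0.05. On simulated data with 200 changed genes 59.7% of 1.5-fold, 97.0% of 2-fold and 100% of 4-fold changes were recovered, with 7 false calls. That simulation drew independent normal noise, held no arrays that stand apart and changed far fewer genes than were called in the data. Its rates need not hold for these arrays.

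Probes were named from GEO's platform annotation through gene IDs, of which 34807 matched RefSeq, and promoters come from RefSeq GRCm38.p6. The comparison, its 43 gene lists (927 of 1547 memberships tested) and the rule for named genes were chosen with earlier results of these data known. The rule took Ceacam1, Dcn and Epha2, the 20 largest differences in each direction without overlap, the 10 brightest 2-fold genes, up to 10 genes detected in 1 group alone in each direction, up to 4 members per list, 5 genes with opposite probes and 5 of the chromosome with most rises. Predicted genes were left out, except as list members, and not every one of the 202 is described. List and marker members named beyond it were chosen after their values were seen. Samples were not paired by replicate number in the model. Correlations of same-numbered deviations were 0.0775, 0.0797, 0.196 and 0.0471, which do not settle whether the numbers pair the samples. Alternatives covered background correction, scaling, the deposited values, detection filters, array sets, probe averaging, the test and each array left out. Leaving out chromosome 5, the arrays that stand apart, and alternatives for the isoform difference and the chromosomes were added after the data were seen.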

Additional observations from a re-analysis of the deposited data

Results flagged for a closer look

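Of 404 groups of 4 arrays examined, a control and a CEACAM1-L group for each of 202 named genes, 29 held an array whose distance to its nearest neighbour was a larger share of the group's range than Dixon's critical value allows, and chance gives about 1 in 20 groups. The values are normalized log2 levels. CEACAM1-L array 1 stood above the other arrays of its group for Cdc25b (8.86) and Hexa (9.53) and below them for Bnip3l (8.86). CEACAM1-L array 2 stood below the other arrays of its group for Cx3cl1 (8.70). CEACAM1-L array 3 stood above the other arrays of its group for Csf2 (5.07). CEACAM1-L array 4 stood above the other arrays of its group for Btbd19 (8.88), Csn3 (8.59) and Gbp3 (6.59) and below them for Cdkn2c (9.57), Ndufa8 (11.40), Rbl1 (6.14) and Rxra (7.94). Control array 1 stood above the other arrays of its group for Klf6 (11.71) and Tgfbr2 (10.96) and below them for Gabarapl1 (8.87) and Mvd (6.37). Control array 2 stood above the other arrays of its group for Nipal1 (7.08) and below them for Il11 (5.32). Control array 3 stood above the other arrays of its group for Acot1 (4.61), Ep300 (8.27) and Plau (8.55) and below them for Ahsa1 (8.13), Bop1 (7.60), Hadhb (6.61) and Loxl4 (8.79). Control array 4 stood above the other arrays of its group for Btn1a1 (7.13) and Csf2 (6.44) and below them for Gbp3 (4.81) and Slco2a1 (7.68). CEACAM1-L array 4, which lay between the groups over the genes that separate them, is among these arrays, and its part in these values was not tested further.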

How the results depend on the processing

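All 3305 called genes kept their direction under every alternative that tested them, except 21 of them with the probes of a gene averaged, where Adar came to 0.14 (adjusted p = 0.436), Akap11 to -0.11 (adjusted p = 0.567) and Tgfbr2 to 0.44 (adjusted p = 0.00252). Counts moved most with scaling to the median, to 250 higher and 390 lower, where the median standard error was 0.336 against 0.149, and with the array set as a block beside it to 414 and 796. Within the dimmer array set they were 920 and 789. At least 2-fold differences numbered 83 higher and 67 lower without background correction and 67 and 54 in the authors' deposited values. Leaving out 1 array gave 1471 to 1589 higher, 1435 to 1588 lower, 249 to 275 at least 2-fold higher and 184 to 230 at least 2-fold lower. Of the 452 genes of 2-fold or more, 407 were still called with median scaling, 450 within the dimmer set and 449 with averaged probes. Of the 202 named genes 79 lost their call with median scaling, 48 with the array set beside it, 26 within the dimmer and 10 within the brighter set. Without CEACAM1-L array 4, 196 of the 202 were called, losing Slc30a4, Rplp2, S100pbp, Mt2, Insr and Plod1. Of 124 named genes that differed between the isoform lines, 50 still did with median scaling, 73 within the dimmer set and 117 without both arrays that stand apart. The 8 arrays alone gave 1607 higher and 1602 lower genes, with a median standard error of 0.151. A replicate block on them, which pairs arrays by replicate number, gave 1743 and 1760, with a median standard error of 0.141. That block changed no named call, and 1 of 4 CEACAM1-L arrays was closest to its own number. No gene's difference depended on the array set at an adjusted p under 0.05 in limma's interaction test, and 372 did at an unadjusted p under 0.05. Signal over background limits the dimmest genes, for which a group without detection gives only a bound. Causes of these shifts were not tested.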
